A study of Mus musculus with 2 samples.

Results

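The constitutive proteasome genes are described here across states of T and NK cells in mouse tumours. They were chosen by symbol, as the numbered Psma, Psmb, Psmc, Psmd, Psme and Psmf genes, leaving out the immunoproteasome genes Psmb8, Psmb9, Psmb10, Psme1 and Psme2. The rule found 41 of the 32285 genes in the count tables, and 35 of the 41 reached a mean level of 20 CPM (counts per 1000000 UMIs of a state, UMIs being unique molecular identifiers) over the cell states and both libraries. By role, the 35 measured genes comprised 7 alpha and 7 beta subunits of the core particle, 6 ATPases and 11 other subunits of the regulatory particle, 2 chaperones of regulatory particle assembly, and 1 activator and 1 inhibitor.

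Sorting kept cells with surface CD45, found on cells of blood origin, and CD90.2 (Thy1), found on T cells and part of the innate lymphocytes. They came from tumours of C57BL/6 mice, an inbred strain, and gave 1 single-cell library labelled WT (wild type) and 1 labelled Dapl1-KO (Dapl1-deficient), so the stated question was how gene expression differs in tumours when Dapl1 is missing. Dapl1 is a gene that naive T cells transcribe. The tumour line, the ages, the number of animals behind each library and the deleted part of Dapl1 are not given in the sources used here. Nothing in either library was treated with an agent, as far as the labels say.

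The proteasome is a barrel with a regulatory cap that takes up ubiquitin-tagged proteins, unfolds them and cuts them into peptides. The outer alpha rings of the barrel control entry, the inner beta rings hold the catalytic sites, and the cap holds an ATPase ring that unfolds substrates together with ubiquitin receptors and a deubiquitinase. In lymphocytes, 3 catalytic subunits can be replaced by immunoproteasome subunits, which interferons induce and which are known for making peptides for MHC class I.

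The libraries held 16673 (WT) and 19662 (Dapl1-KO) barcodes with 154408101 and 206322042 UMIs, counted from the 3′ ends of transcripts. Of these barcodes, 13132 occurred in both libraries, and only the clearly larger copy was kept. After filters and removal of likely doublets, 8991 cells (WT) and 10098 cells (Dapl1-KO) remained, with medians of 7355 and 8463.5 UMIs. Cells with Xist or Tsix and no Y-linked UMI made up 73.9% (WT) and 0.0891% (Dapl1-KO) of the libraries, and cells with a Y-linked UMI only made up 10.8% and 69.5%. Genotype and library therefore cannot be told apart, nor can sex where all cells are compared. Cells with a Y-linked UMI only were also compared on their own, in the 4 states where both libraries had at least 30 of them. Dapl1 itself stood at 159 CPM (WT) and 161 CPM (Dapl1-KO) in naive CD8 cells. The deleted part of Dapl1 is not given, so it is not known whether this 3′ count covers it. The libraries are therefore called by their labels throughout, and why Dapl1 counts did not differ was not tested.

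Cells were sorted into 9 states by marker UMIs. CD8 cells were split into cycling cells, cells with at least 0.5% of UMIs from Gzmd to Gzmg (granzymes of strongly activated cells), cells with Pdcd1 (PD-1), naive cells (no Pdcd1, at least 2 of 5 naive markers) and effector cells (no Pdcd1, with Ly6c2 or Gzma). Conventional CD4 cells, regulatory T cells (Foxp3), cycling regulatory T cells and NK cells made up the rest, and these states took in 5487 cells (WT) and 6733 cells (Dapl1-KO). Among markers not used in sorting, Klf2, Satb1, Igfbp4 and Dapl1 summed to 2122 and 1711 CPM in naive CD8 cells and to at most 1177 CPM in any other state. Klf2 alone gave 1608 and 1219 CPM of the sum in naive CD8 cells, so this check rests largely on Klf2. Satb1 and Dapl1 were also highest in naive CD8 cells in both libraries. Igfbp4 was higher in conventional CD4 cells under the label WT (71.55 against 55.85 CPM). Conventional CD4 markers (Cd40lg, Icos, Cd5) summed to 558 and 713 CPM in their own state but to 914 and 813 CPM in regulatory T cells. Only Cd40lg was highest in conventional CD4 cells in both libraries (45.8 and 40.8 CPM). Regulatory T markers (Il2ra, Ikzf2, Ctla4, Tnfrsf4) summed to 1193 and 1765 CPM in conventional CD4 cells, against 4015 and 4800 CPM in regulatory T cells. The naive state also held Ccl5, an effector chemokine, at 3470 CPM (WT) and 5717 CPM (Dapl1-KO). Its summed effector markers reached 3541 and 5839 CPM, against 17300 and 23240 CPM in effector cells. Ccl5 alone gave 17110 and 22970 CPM of the sum in effector cells, so this check rests on Ccl5. Klrg1 was highest in regulatory T cells (135 and 191 CPM, against 16.3 and 20.2 CPM in effector cells). Itgb1 was highest in NK cells (305 and 370 CPM, against 143 and 208 CPM). Cx3cr1 was highest in effector cells only under the label Dapl1-KO (41.8 CPM). PD-1 state markers (Lag3, Havcr2, Tox, Tigit) summed to 584.5 and 547.1 CPM in PD-1 cells, against 561.7 and 612.3 CPM in cells with Gzmd to Gzmg. Of these markers only Tox was highest in PD-1 cells in both libraries (169.8 and 141.5 CPM). Lag3 and Havcr2 were highest in cells with Gzmd to Gzmg, and Tigit in regulatory T cells. Summed macrophage markers (3 genes) ran from 6.99 to 58.2 CPM over all states. The sum was highest in NK cells through Fcgr3 (43.3 and 44.4 CPM there), while Apoe and Cd68 were each higher in other states. Summed B cell markers reached at most 8.34 CPM.

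Proteasome transcripts took a larger share of RNA in activated and cycling cells than in naive cells, in both libraries. The 41 genes summed to 2244 CPM (WT) and 2919 CPM (Dapl1-KO) in naive CD8 cells, to 3496 and 3913 CPM in effector cells, and to 4229 and 4706 CPM in PD-1 cells. Cells with Gzmd to Gzmg stood at 4797 and 4965 CPM, although only 65 and 56 cells fell there. Cycling CD8 cells were at 6738 and 6697 CPM and cycling regulatory T cells at 6845 and 6728 CPM, the highest of the 9 states. Conventional CD4 cells held 3384 and 3940 CPM, regulatory T cells 4361 and 4388 CPM, and NK cells 3492 and 3905 CPM. Naive CD8 cells were lowest in each library, and neither library placed any non-cycling state as high as a cycling one.

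**Figure D1:**
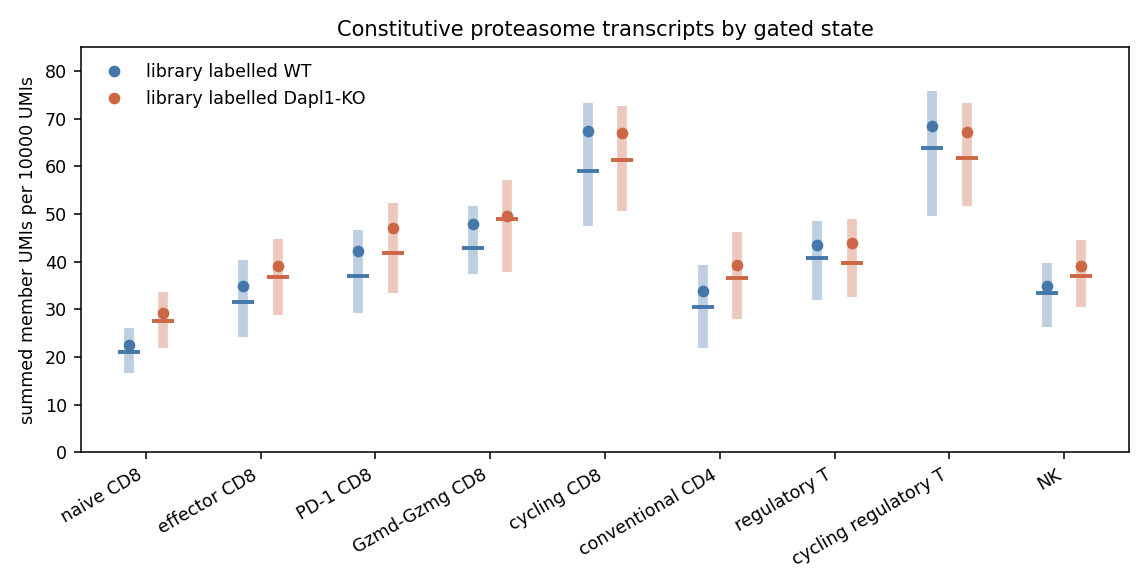
Summed UMIs of the 41 constitutive proteasome genes per 10000 UMIs (vertical axis) in each of the 9 gated states, by library label. Circles give the value of the summed cells, horizontal marks the median cell and bars the middle range of cells (lower to upper quartile). Circles run from 22.4 in naive CD8 cells (WT) to 68.5 in cycling regulatory T cells (WT), and the cells of neighbouring states overlap widely.

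Single cells within a state spread widely around these sums. The middle range of naive CD8 cells was 16.6 to 26.1 proteasome UMIs per 10000 under the label WT, and that of PD-1 cells of this library was 29.3 to 46.6. Median UMIs per cell differed between states as well, at 7573 and 8626 in naive, 9777 and 9002 in PD-1 and 28940 and 25305 in cycling CD8 cells. Naive CD8 cells were not the shallowest state. Medians were lower in effector (5386 and 4808), conventional CD4 (4959 and 5101), regulatory T (5958 and 6232) and NK cells (6021 and 6493). Each of these states had a higher proteasome share than naive CD8 cells. The part of UMI totals in the differences between states was not tested. CPM is a share of UMIs and does not give molecules per cell.

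Across the 9 states, 30 of the 35 measured genes were lowest in naive CD8 cells in both libraries, as were 32.8% of the 4422 genes that reached the same level. A cycling state was the highest in both libraries for 32 of the 35, against 27.9% of all genes. The median gene spanned 3.23-fold (WT) and 2.59-fold (Dapl1-KO) from its lowest to its highest state, against 2.46-fold and 2.28-fold over all genes. Members shared this order without sharing its width: Psma4 spanned 5.43-fold and 4.26-fold, and Psmb1 1.60-fold and 1.31-fold.

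**Figure D2:**
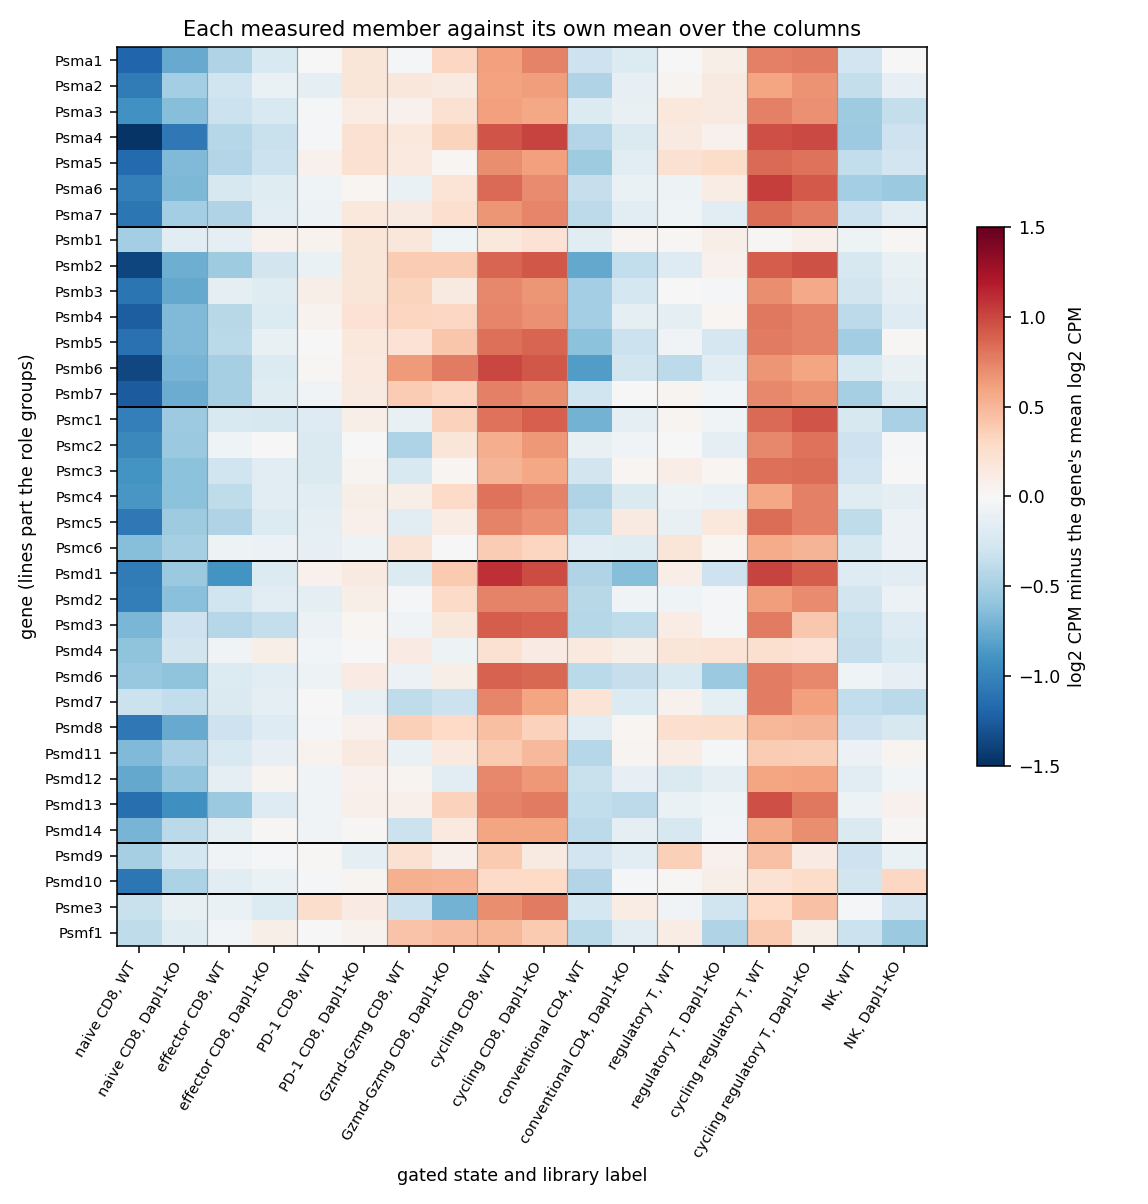
Level of each of the 35 measured genes (rows, grouped by role) in each state and library (columns), as log2 CPM minus the gene's own mean log2 CPM. Blue is below and red above that mean. The naive CD8 columns are bluest and the cycling columns reddest, while the rows of Psmb1 and Psmd4 stay pale.

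The alpha subunits form the outer rings of the barrel. Psma4 had the widest span of the 35 measured genes: it stood at 59.8 and 79.1 CPM (WT and Dapl1-KO) in naive CD8 cells, 123 and 132 CPM in effector cells, 163 and 195 CPM in PD-1 cells and 320 and 337 CPM in cycling CD8 cells. Its NK value was 114 and 134 CPM, and cycling regulatory T cells had 325 and 331 CPM. Each step from naive through effector and PD-1 to cycling cells was upward in both libraries. Psma2, Psma7 and Psma3 were the alpha subunits with most UMIs, at means of 328, 299 and 287 CPM; a 3′ UMI count does not scale with transcript length. Psma6 went from 55.3 and 70.8 CPM in naive CD8 cells to 232 and 214 CPM in cycling regulatory T cells.

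Of the beta subunits, Psmb5, Psmb6 and Psmb7 carry the chymotrypsin-like, caspase-like and trypsin-like sites. Psmb6 went from 63.2 and 101 CPM in naive CD8 cells to 165 and 180 CPM in PD-1 cells, 254 and 281 CPM in cells with Gzmd to Gzmg, and 326 and 310 CPM in cycling CD8 cells. Psmb5 stood at 68.4 and 93.7 CPM in naive, 148 and 166 CPM in PD-1 and 263 and 271 CPM in cycling CD8 cells. Psmb7 stood at 40.9 and 57.9 CPM, 93.5 and 107 CPM, and 164 and 157 CPM in the same states. The 3 catalytic genes had the same order of these states in both libraries. Psmb2, a non-catalytic beta subunit, spanned 4.89-fold and 3.23-fold, from 58.8 and 92.0 CPM in naive CD8 cells to 287 and 297 CPM in cycling regulatory T cells. Psmb1, also non-catalytic, had the highest mean level of all members (429 CPM) and the narrowest span of the measured genes in both libraries, with 300.1 and 377 CPM in naive CD8 cells, 443 and 484 CPM in PD-1 cells and 475 and 496 CPM in cycling CD8 cells.

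Promoters are shown for Psma4 and Psmb6, the widest-ranging of the 35 measured genes in the library labelled WT, for the catalytic Psmb5 and for Psmd4, one of the narrowest-ranging, since members that move together invite a look at their upstream sequence. Each is the 250 bases before the transcription start in RefSeq (GRCm38.p6), written along the gene's own strand, with the motif that was found in capitals: CACGTG (an E-box) in Psma4, TGACNNNGC (the core of the antioxidant response element) in Psmb6 and Psmb5, and CCAAT on the opposite strand, so printed as its complement, in Psmd4. They lie at chr9:54950609-54950858 (+), chr11:70525107-70525356 (+), chr14:54617996-54618245 (-) and chr3:95042615-95042864 (-).
Psma4: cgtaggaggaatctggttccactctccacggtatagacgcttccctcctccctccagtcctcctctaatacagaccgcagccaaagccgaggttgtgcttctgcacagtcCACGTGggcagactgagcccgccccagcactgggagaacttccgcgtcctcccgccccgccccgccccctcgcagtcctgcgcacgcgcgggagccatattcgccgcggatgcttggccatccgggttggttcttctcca
Psmb6: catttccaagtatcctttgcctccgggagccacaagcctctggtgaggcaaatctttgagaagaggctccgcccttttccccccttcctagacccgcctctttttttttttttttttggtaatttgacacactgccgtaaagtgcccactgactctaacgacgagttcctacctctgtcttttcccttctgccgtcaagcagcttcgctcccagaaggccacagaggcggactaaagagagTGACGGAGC
Psmb5: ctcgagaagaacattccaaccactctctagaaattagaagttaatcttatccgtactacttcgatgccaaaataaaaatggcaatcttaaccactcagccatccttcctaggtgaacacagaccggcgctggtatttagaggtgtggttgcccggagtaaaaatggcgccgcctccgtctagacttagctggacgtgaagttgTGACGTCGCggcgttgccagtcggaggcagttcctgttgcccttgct
Psmd4: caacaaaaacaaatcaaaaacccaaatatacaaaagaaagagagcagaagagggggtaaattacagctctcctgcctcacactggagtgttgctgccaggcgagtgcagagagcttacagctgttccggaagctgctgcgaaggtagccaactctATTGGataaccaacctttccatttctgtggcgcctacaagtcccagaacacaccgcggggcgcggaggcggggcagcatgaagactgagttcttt

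The motif in Psma4 began 140 bases before the start, that in Psmb6 9 bases, that in Psmb5 47 bases and that in Psmd4 95 bases before it. A search of both strands of the 34 members with a promoter entry found TGACNNNGC in 5 (14.7%), namely Psmb5, Psmb6, Psmc6, Psmd9 and Psmd12, against 11.5% of the 27025 genes with an entry. CCAAT was in 14 (41.2%) against 37.5%, and CACGTG, which reads the same on both strands, was in Psma4, Psmd9 and Psme3 (8.82%) against 6.86%. Each motif was counted on its own, so a stretch may hold more than one; a match is only a description, and these shares lay near those of all promoters. Psmb1, Psmb2, Psmb7, Psmc3, Psmd3, Psmd7 and Psma8 are named only.

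The ATPases form the unfolding ring of the cap. Psmc1, the least counted of them, stood at 15.003 and 20.8 CPM in naive CD8 cells, 26.5 and 32.4 CPM in PD-1 cells and 53.5 and 56.9 CPM in cycling CD8 cells. Psmc3 stood at 50.5 and 61.5 CPM in naive CD8 cells and at 167 and 168 CPM in cycling regulatory T cells. Psmc6 had the narrowest span of the ATPases, 2.30-fold and 2.01-fold, from 65.8 and 72.7 CPM in naive CD8 cells to 151 and 146 CPM in cycling regulatory T cells. All 6 ATPase genes were lowest in naive CD8 cells and highest in a cycling state in both libraries.

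The other subunits of the cap differed in span. The widest was Psmd1 under the label WT (4.43-fold, and 3.08-fold under Dapl1-KO) and Psmd13 under Dapl1-KO (3.26-fold). The narrowest was Psmd4, at 1.79-fold and 1.41-fold. Psmd1, a large scaffold subunit, stood at 21.0 and 29.7 CPM in naive CD8 cells and at 93.1 and 86.0 CPM in cycling CD8 cells, with 23.3 and 37.7 CPM in effector cells. Psmd14, the deubiquitinase, went from 42.5 and 52.0 CPM to 104 CPM in both libraries between the same 2 states. Psmd4, a ubiquitin receptor, was lowest in naive CD8 and highest in cycling regulatory T cells over this narrow range, at 92.4 and 115 CPM in naive CD8 cells, 136 and 141 CPM in PD-1 cells and 164 and 152 CPM in cycling CD8 cells. Psmd7, the partner of Psmd14 in the cap, was not lowest in naive CD8 cells: it stood at 52.8 and 51.0 CPM there, at 50.7 and 52.9 CPM in cells with Gzmd to Gzmg and at 51.0 and 49.7 CPM in NK cells.

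Chaperones of cap assembly and the factors that bind the barrel in place of the cap were counted less often. Psmd10 (gankyrin) was highest in cells with Gzmd to Gzmg, at 42.4 and 42.0 CPM, and stood at 13.8 and 21.0 CPM in naive and 35.6 and 36.1 CPM in cycling CD8 cells. Psmd9 ranged from 34.9 and 41.1 CPM in naive to 65.0 and 54.3 CPM in cycling CD8 cells. Psme3, a nuclear activator, stood at 18.5 and 21.5 CPM in naive CD8 cells, 18.6 and 14.3 CPM in cells with Gzmd to Gzmg and 37.7 and 40.2 CPM in cycling CD8 cells. Psmf1, an inhibitor of the barrel in biochemical assays, was just above the level limit with a mean of 20.04 CPM and stayed between 13.2 and 27.5 CPM in all states.

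Just below the limit was Psme4, another nuclear activator, with a mean of 18.0 CPM and its highest values in regulatory T cells (28.6 and 23.9 CPM). Psmd5, the remaining chaperone, averaged 14.4 CPM. Psmc3ip, which carries a member's symbol but encodes a recombination factor and no proteasome subunit, stood at 24.2 and 25.3 CPM in cycling CD8 cells and at 4.58 and 5.39 CPM in PD-1 cells. Psme2b averaged 4.59 CPM, which is uncertain because its sequence is close to that of Psme2. Psmb11, the catalytic subunit of the thymus, had 2 UMIs in all 9 states together and Psma8, known from the testis, had 4, so neither can be compared between states.

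States were compared within each library, and a gene was called higher or lower only when at least 25% higher or 20% lower (a log2 ratio of 0.32 either way) in both libraries. With 1 library per label there is no replicate, no test and no p-value, and the intervals given cover counting error only (exact, 95%). Effector over naive CD8 cells gave 27 of 35 members higher and 0 lower, where 35.8% of all 4422 genes were higher and 3.69% lower. The median member had a log2 ratio of 0.53, and all genes 0.30. Psma4 led with log2 ratios of 1.04 (WT) and 0.74 (Dapl1-KO), then Psmb3 with 0.97 and 0.58, and Psmc2 with 0.91 and 0.57. At the other end stood Psme3 with 0.23 and −0.10, Psmd3 with 0.25 and −0.05, and Psmd7 with 0.11 and 0.23. Once all ratios were centred on the median gene, 1 of 35 members was past the limit higher, against 13.5% of all genes.

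PD-1 over naive CD8 cells gave 30 of 35 higher and 0 lower, against 42.9% and 9.34% of all genes. The median member ratio was 0.79 on the log2 scale and that of all genes 0.32. All 7 alpha, all 7 beta and all 6 ATPase genes were higher, with median log2 ratios of 0.84, 1.07 and 0.69. Psma4 was 2.73-fold and 2.47-fold higher, Psmb6 2.61-fold and 1.79-fold, Psmb2 2.43-fold and 1.88-fold, and Psmb4 2.44-fold and 1.83-fold. Psmd4, Psmd7, Psmd9, Psme3 and Psmf1 did not pass in both libraries; Psmd7 had log2 ratios of 0.33 and 0.25. Of the 5 immunoproteasome genes 4 were higher, with a median log2 ratio of 0.88, and Psme1 was the exception at 0.40 and 0.19.

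Cells with Gzmd to Gzmg over PD-1 cells gave 3 higher and 1 lower of 35, against 10.4% and 20.6% of all genes. Psmb6 was 1.54-fold and 1.56-fold higher, with log2 intervals of 0.46 to 0.78 (WT) and 0.47 to 0.80 (Dapl1-KO). Psmd10 had log2 ratios of 0.56 and 0.48, and Psmf1 0.43 and 0.41 with intervals that reach below 0. Psme3 was lower by −0.59 and −0.83. The median member ratio was 0.10, with all genes at −0.098.

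Cycling CD8 over PD-1 cells gave 30 of 35 higher and 0 lower, against 23.7% and 17.8% of all genes. The median member had a log2 ratio of 0.66, where all genes were at 0.034. Psmd1 was 2.05-fold and 1.80-fold higher, Psmd3 1.998-fold and 1.82-fold, Psmc1 2.02-fold and 1.76-fold, and Psmb6 1.98-fold and 1.72-fold. Psmb1 differed little, with log2 ratios of 0.10 (0.056 to 0.15) and 0.034 (−0.0036 to 0.072), and Psmd4, Psmd8, Psmd9 and Psmd10 also missed the limit in at least 1 library. Psmb9 alone passed among the 5 immunoproteasome genes, whose median was 0.32. In cells with 5000 to 15000 UMIs the median member ratio was 0.30 and that of all genes 0.057, and 6 of 35 were past the limit higher, against 7.69% of all genes.

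Cycling over non-cycling regulatory T cells gave a similar count, with 28 of 35 higher and 0 lower, against 21.1% and 29.4% of all genes. The median log2 ratio was 0.74, and that of all genes −0.11. Psmd6 led with 1.999-fold and 2.43-fold, followed by Psmd1 with 1.88-fold and 2.32-fold, Psmb2 with 2.15-fold and 1.87-fold, and Psma6 with 2.16-fold and 1.76-fold. Psmb1 stood at log2 ratios of 0.0011 (WT, −0.11 to 0.11) and −0.0099 (Dapl1-KO, −0.11 to 0.089) and Psmd4 at 0.060 and 0.0042, the flattest of the 35. In cells with 5000 to 15000 UMIs the median was 0.39 and that of all genes 0.026, and 15 of 35 were past the limit higher, against 13.1% of all genes.

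Regulatory T over conventional CD4 cells gave 4 higher and 0 lower of 35, against 19% and 7.76% of all genes. These were Psma5 with log2 ratios of 0.76 and 0.45, Psmb2 with 0.58 and 0.42, Psmd3 with 0.54 and 0.35 and Psmd1 with 0.56 and 0.33. The median was 0.27 and that of all genes 0.11. The conventional CD4 state itself held summed regulatory T markers at 1193 and 1765 CPM. The count higher was 1 in cells with 5000 to 15000 UMIs (16.4% of all genes) and 6 with cells thinned to 3000 UMIs (20.5%). Psme4, below the level limit, had 1.43-fold and 1.63-fold. Between NK and effector CD8 cells 0 of 35 passed in either direction, against 11.3% and 10.9% of all genes, and the log2 ratio of the summed members was −0.0017 (WT, −0.048 to 0.045) and −0.0029 (Dapl1-KO, −0.038 to 0.032). Psmf1 stood lowest there, with log2 ratios of −0.29 and −0.65.

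The share of proteasome transcripts was also higher in cells with more UMIs inside the PD-1 and cycling states. Summed members of PD-1 cells went from 3202 CPM (WT) and 3630 CPM (Dapl1-KO) in cells with 2000 to 5000 UMIs to 5405 and 5836 CPM in cells with 20000 to 40000 UMIs. Cycling CD8 cells stood at 4272 CPM (WT, 10 cells) and 3775 CPM (Dapl1-KO, 21 cells) between 2000 and 5000 UMIs, at 4110 and 4899 CPM between 5000 and 10000 UMIs and at 7529 and 7456 CPM between 40000 and 80000 UMIs. Naive CD8 cells were flat up to 20000 UMIs (2331, 2115 and 2372 CPM in the library labelled WT), and the 16 and 19 deeper cells had 2993 and 4269 CPM. At 5000 to 10000 UMIs, cycling cells were at 4110 and 4899 CPM and PD-1 cells at 3533 and 4124 CPM, a smaller gap than over all cells.

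**Figure D3:**
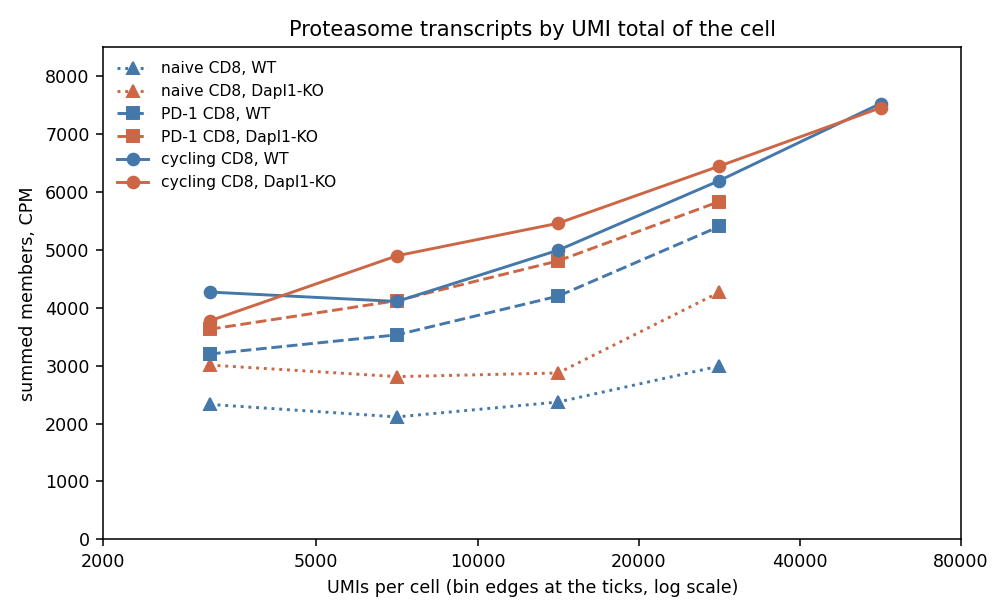
Summed CPM of the 41 genes (vertical axis) in naive, PD-1 and cycling CD8 cells, binned by the UMI total of the cell (horizontal log axis), for each library label. Bins with fewer than 10 cells are not drawn. PD-1 cells climb from bin to bin, as do cycling cells apart from the first step under the label WT (4272 to 4110 CPM), and naive cells lie lowest in every bin where they are drawn.

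The same pattern was set out by gene in a comparison added after the data had been seen: cells with 20000 to 40000 UMIs over cells with 5000 to 10000 UMIs of the same state. In PD-1 cells, 24 of 35 members were higher and 0 lower past the limit in both libraries, against 19.5% and 20.9% of all genes, with medians of 0.55 for members and −0.028 for all genes on the log2 scale. In cycling CD8 cells 20 of 35 were higher and 0 lower, against 17.3% and 21.8%, with medians of 0.54 and −0.030. Psmb2 was 2.68-fold (WT) and 2.03-fold (Dapl1-KO) higher in deep PD-1 cells and Psma4 1.89-fold and 1.81-fold. Psmb1 stood at 1.10-fold and 0.986-fold, and Psmd4 at 1.13-fold and 1.14-fold. What sets the UMI total of a cell was not tested.

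Genes that act with the proteasome were compared between cycling CD8 and PD-1 cells, where 23.7% of all genes were higher. Among 5 assembly factors 4 were measured, and 3 were higher: Psmg2 (20.8 CPM in PD-1 cells of either library, 36.8 and 36.7 CPM in cycling cells), Psmg3 (23.4 and 19.05 CPM, then 32.6 and 29.7 CPM) and Pomp, the maturation factor, at 1.40-fold and 1.29-fold. Psmg1, below the level limit, had 2.34-fold and 2.22-fold. Of 9 measured proteins that bind the proteasome 3 were higher, a share near that of all genes, among them Uchl5, a cap-bound deubiquitinase, at 44.2 and 38.3 CPM in PD-1 and 89.4 and 87.9 CPM in cycling cells. Of the 3 measured p97 genes, which extract ubiquitin-tagged proteins, 2 were higher, with Vcp at 1.52-fold and 1.53-fold. The other way went Nfe2l2, an activator of stress genes that include proteasome genes: it went from 47.1 and 41.8 CPM in naive to 21.5 and 21.4 CPM in PD-1 and 12.2 and 10.3 CPM in cycling CD8 cells. Nfe2l1, the factor known to raise proteasome genes when the proteasome is blocked, lay between 17.5 and 30.2 CPM in all states.

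Each catalytic subunit was set against the immunoproteasome subunit that replaces it. Psmb5 had far fewer UMIs than Psmb8 in every state, with ratios from 0.165 (regulatory T cells, Dapl1-KO; 0.149 to 0.182) to 0.290 (cycling CD8 cells, WT; 0.283 to 0.296). Psmb6 to Psmb9 lay between 0.3801 in regulatory T cells (Dapl1-KO) and 1.15 in cells with Gzmd to Gzmg (WT), and Psmb7 to Psmb10 between 0.417 in naive CD8 cells (Dapl1-KO) and 1.08 in cells with Gzmd to Gzmg (WT). These are ratios of 3′ UMIs of different genes and do not give the makeup of the protein complex. In PD-1 cells Psmb6 to Psmb9 was 0.797 (WT, 0.750 to 0.846) and 0.554 (Dapl1-KO, 0.528 to 0.582), and in cycling CD8 cells it was 1.01 (0.981 to 1.03) and 0.705 (0.691 to 0.719). Psmb5 to Psmb8 in NK cells ran the other way, with 0.210 (0.183 to 0.240) and 0.276 (0.2497 to 0.305).

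In the comparison of labels, library labelled Dapl1-KO over library labelled WT, the summed members differed most in naive CD8 cells when all cells were used. There 20 of 35 members were past the limit higher and 0 lower, against 26.7% and 9.38% of all genes, with a median log2 ratio of 0.35 where all genes had 0.11. The summed members had a log2 ratio of 0.38 (0.36 to 0.40). Psmb6 was 1.59-fold higher (log2 interval 0.53 to 0.81), Psmb2 1.57-fold, Psmd10 1.53-fold and Psma7 1.49-fold, while Psmd7 and Psmd6 stood at log2 ratios of −0.049 and −0.043. All 7 beta and 6 of 7 alpha genes were past the limit, but 3 of 11 cap subunits other than ATPases. The middle ranges of single cells overlapped, at 16.6 to 26.1 (WT) and 21.9 to 33.7 (Dapl1-KO) proteasome UMIs per 10000. After centring on the median gene 12 of 35 were past the limit higher, against 17.8% of all genes, and 3 of 35 were at least 1.5-fold higher, against 8.84%. With all cells split by UMI total the library labelled Dapl1-KO was higher in each bin, for example 2811 against 2115 CPM between 5000 and 10000 UMIs.

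Other genes differed between these naive cells as well. Heat shock genes had higher levels under the label WT, with Hspa1a at 1769 against 185 CPM and Dnajb1 at 691 against 170 CPM, as did Jun (671 against 355 CPM) and Fos (309 against 136 CPM), all genes chosen after their values had been seen. Effector markers summed to 3541 CPM (WT) and 5839 CPM (Dapl1-KO), the values noted for the naive state at the outset. Ccl5 alone gave 3470 and 5717 CPM of these sums. Summed cycling markers stood at 640.0 and 844 CPM in these cells, NK markers at 210.5 and 386 CPM, and Gzmb, Gzmc and Prf1 together at 121 and 279.5 CPM. The immunoproteasome genes were all 5 past the limit on the side of Dapl1-KO, with a median log2 ratio of 0.74. The part of heat shock genes, of effector, cycling and NK transcripts, of immunoproteasome genes or of sex in the proteasome difference was not tested. Among cells with a Y-linked UMI and neither Xist nor Tsix the median member ratio in naive CD8 cells was 0.525 and that of all genes 0.27.

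Cycling CD8 cells did not share this difference: 0 of 35 members passed the limit either way, against 8.64% and 7.26% of all genes, and the summed members had a log2 ratio of −0.0089 (−0.016 to −0.0015). Psmd9 was the lowest at −0.26 (−0.34 to −0.18) and Psma1 the highest at 0.13. In PD-1 cells 1 of 35 passed, Psma2 at a log2 ratio of 0.32 (0.26 to 0.39), against 14.9% higher and 7.24% lower among all genes, and the sum had a log2 ratio of 0.15 (0.14 to 0.17). Among cells with a Y-linked UMI only, 9 of 35 passed higher in PD-1 cells, against 29.1% of all genes. Effector cells had 2 of 35 higher, Psmd1 at 1.61-fold and Psmd13 at 1.29-fold, against 21.6% and 11.2%, and a sum of 0.16 (0.12 to 0.21). That count was 11 with stricter marker limits (29.3% of all genes) and 8 with cells thinned to 3000 UMIs (28.8%), and the median member ratio turned to −0.0328 with all deposited barcodes. Cells with Gzmd to Gzmg, few in number, had 5 higher and 1 lower, against 24.0% and 19.2%, led by Psmc2 at 1.57-fold. Psme3, the lower one, had an interval from −1.34 to 0.53, and the sum a log2 ratio of 0.050 (0.000063 to 0.099). Thinned to 3000 UMIs, these cells had 14 higher and 7 lower, against 35.3% and 29.3% of all genes.

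Conventional CD4 cells were nearest to the naive CD8 result, with 11 of 35 higher and 1 lower (Psmd7) against 19.7% and 11.7%, and a summed log2 ratio of 0.22 (0.18 to 0.26). The count higher was 6 both after centring (15.1% of all genes) and with stricter marker limits (20.9%), 0 at 1.5-fold (5.68%) and 25 among cells with a Y-linked UMI only (44.8%). In those last cells (51 WT and 280 Dapl1-KO) the median member ratio was 0.539, against 0.525 in naive CD8 cells with a Y-linked UMI only. No interval was computed for these medians, so they do not order the states. Among all conventional CD4 cells Psmb6 was 1.48-fold higher, from 90.9 to 135 CPM, Psmc1 1.48-fold and Psmc5 1.43-fold. Psmd7 went from 76.1 to 57.2 CPM. Hspa1a stood at 1965 (WT) and 495 CPM (Dapl1-KO) in these cells, and its part was not tested. Regulatory T cells had 0 higher and 3 lower, Psmf1, Psmd1 and Psmd6, against 7.94% and 15.5%, and a sum of 0.0089 (−0.024 to 0.042). NK cells had 2 higher and 0 lower, against 13.8% and 13.5%: Psmd10 at 1.498-fold and Psmb5 at 1.45-fold, the latter from 103 to 150.0 CPM. Their sum had a log2 ratio of 0.16 (0.12 to 0.20), and Hspa1a stood at 1999 (WT) and 330.0 CPM (Dapl1-KO).

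**Figure D4:**
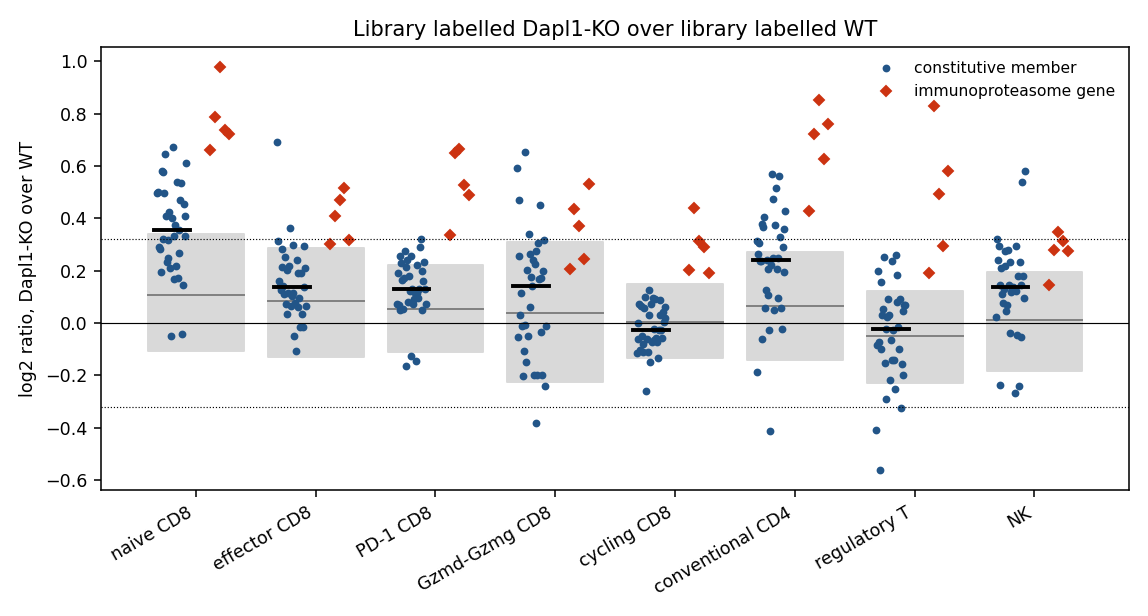
Log2 ratio of the library labelled Dapl1-KO over that labelled WT (vertical axis) for each measured constitutive gene (circles) and each immunoproteasome gene (diamonds), by state. Black bars give the members' median, grey boxes the middle range of all 4422 genes with their median as a grey line, and dotted lines mark the limit of 0.32. Members lie above all genes in naive CD8 cells (median 0.35 against 0.11), and immunoproteasome genes lie above 0 in all 8 states shown.

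The immunoproteasome genes, unlike the constitutive ones, stood above a log2 ratio of 0 in all 8 states compared. All 5 passed the limit in naive CD8, PD-1 and conventional CD4 cells, against 26.7%, 14.9% and 19.7% of all genes. In effector cells, cells with Gzmd to Gzmg and regulatory T cells 3 passed, against 21.6%, 24.0% and 7.94%. In cycling CD8 cells (Psmb9) and NK cells (Psmb10) 1 passed, against 8.64% and 13.8%, which for 1 of 5 genes is near the background. Their medians ran from 0.28 in NK cells to 0.74 in naive CD8 cells. Psmb10 in naive CD8 cells went from 70.6 to 138.9 CPM and Psmb9 in regulatory T cells from 217 to 385 CPM.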

How the data were processed

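The authors deposited 1 table of UMI counts for each library, without normalization. Cell Ranger 5.0.0 and the builds mm10 and GRCm38 are named in the submitters' processing notes. Where a barcode occurred in both libraries, the copy with at least 2 times the UMIs of the other was kept, and 21 barcodes with no such copy were left out of each library. Cells had to show 500 genes or more, with mitochondrial counts of 10% or less, which left 9865 and 11156. The automatic limit of Scrublet (scanpy 1.11.5) marked 1 and 2 cells, so a score limit set from 0.8% per 1000 cells was used, which removed 874 and 1058. Cells with 3 or more UMIs of non-lymphoid genes, or fitting no marker combination, had no state. Counts were summed per state and library (1190567 to 56878498 UMIs) and divided by the total to give CPM. Intervals are exact conditional binomial. Genes were measured at a mean of 20 CPM. In each comparison the 4 highest and 4 lowest members could be named, along with catalytic subunits, activators, the inhibitor, chaperones and members of the comparison lists. Members, states and lists were chosen with earlier results of these data known. Ratios and intervals were also computed on simulated counts that held counting error only, which leaves out variation between cells or libraries. Python 3.11.15, numpy 2.4.6 and scipy 1.17.1 were used.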

Additional observations from a re-analysis of the deposited data

Results flagged for a closer look

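The difference between the library labels was not the same in all states. Summed constitutive members had a log2 ratio, Dapl1-KO over WT, of 0.38 in naive CD8 cells and of -0.0089 in cycling CD8 cells. Between these values lay conventional CD4 (0.22), effector (0.16), NK (0.16), PD-1 (0.15), Gzmd-Gzmg (0.050) and regulatory T cells (0.0089). Among cells with a Y-linked UMI only, the median member ratio was 0.525 in naive CD8 and 0.539 in conventional CD4 cells. The difference between the states was not tested.

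Outside the 9 states were 3504 cells of the library labelled WT and 3365 of that labelled Dapl1-KO, which enter no comparison above. Of these, 265 and 190 were CD8 cells that met none of the CD8 states, with summed members at 3655 and 3971 CPM. The remaining 3239 and 3175 cells fitted no lineage or had non-lymphoid UMIs, and held 5140 and 5432 CPM. Among the latter, 2760 and 2495 cells had a Cd3 UMI without a fitting combination of lineage genes, and the median of the 3239 and 3175 cells was 30.5 and 36.7 proteasome UMIs per 10000.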

How the results depend on the processing

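No paired analysis was possible because each genotype label has 1 library. Over the alternatives, 116 medians of member ratios were compared: 69 stayed within their spread, 43 moved and 4 reversed. For label comparisons the spread came from the counting interval of the summed ratio. For state comparisons it was the standard deviation between the library medians, which is not counting error. Among the 69 and the 43, 3 took the other sign, all in the label comparison of regulatory T cells. There the interval of the summed ratio included 0, so these were not called reversed. With cells thinned to 3000 UMIs that median was 0.00431. All values here are median log2 ratios of members unless called counts, and the causes of the changes were not tested. With all deposited barcodes, Dapl1-KO over WT became -0.0328 in effector CD8 cells and NK over effector CD8 cells became -0.0956, both reversed. In the same setting PD-1 cells moved to 0.149, conventional CD4 cells to 0.305, cycling CD8 cells to -0.00936 and Gzmd-Gzmg over PD-1 cells to 0.151. Cycling CD8 cells also reversed for Dapl1-KO over WT, to 0.0356 among Y-linked cells and to 0.0285 with cells thinned to 3000 UMIs. Y-linked cells gave 0.198 in PD-1, 0.539 in conventional CD4 and 0.525 in naive CD8 cells, and no value in effector, Gzmd-Gzmg, regulatory T and NK cells (under 30 cells). Thinning gave 0.215 in Gzmd-Gzmg, 0.187 in effector and 0.388 in naive CD8 cells for the labels, and 0.149 for Gzmd-Gzmg over PD-1, 0.0547 for NK over effector and 0.665 for cycling over other regulatory T cells. Centring on all genes gave label ratios of 0.076 in PD-1, 0.174 in conventional CD4, 0.0527 in effector, 0.245 in naive CD8 and 0.0287 in regulatory T cells, and state ratios of 0.192 (Gzmd-Gzmg over PD-1), 0.469 (PD-1 over naive), 0.852 (cycling over other regulatory T) and 0.229 (effector over naive). Cells with 5000 to 15000 UMIs gave 0.117, 0.297 and 0.385 for Gzmd-Gzmg over PD-1, cycling over PD-1 and cycling over other regulatory T cells. Stricter marker limits gave 0.0867 in Gzmd-Gzmg, 0.146 in conventional CD4, -0.0586 in cycling CD8, 0.238 in effector and -0.0625 in regulatory T cells, 0.0114 for Gzmd-Gzmg over PD-1 and 0.0787 for NK over effector cells. Without doublet removal PD-1 cells had 0.149, Gzmd-Gzmg over PD-1 0.118, NK over effector 0.0206 and cycling over other regulatory T cells 0.715. With 1000 genes and 5% mitochondrial counts the values were -0.0158 in cycling CD8 and 0.379 in naive CD8 cells and 0.119 for Gzmd-Gzmg over PD-1. A minimum of 50 CPM gave 0.146 in PD-1, -0.0376 in cycling CD8 and 0.0265 in regulatory T cells and 0.115 for Gzmd-Gzmg over PD-1.

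Counts of members past the limit moved by over 1.5 times in 71 of 262 cases. Higher counts changed from 27 to 1 (centred) and 2 (at 1.5-fold) for effector over naive cells, and from 30 to 16 (1.5-fold) and 6 (5000 to 15000 UMIs) for cycling over PD-1 cells. Cycling over other regulatory T cells went from 28 to 15 in that UMI range. The label comparison went from 20 to 12 (centred) and 3 (1.5-fold) in naive CD8 cells, from 11 to 6 (centred, stricter gates), 0 (1.5-fold) and 25 (Y-linked) in conventional CD4 cells, from 1 to 9 (Y-linked) in PD-1 cells, from 2 to 11 (stricter gates) and 8 (thinned) in effector cells and from 5 to 14 (thinned) in Gzmd-Gzmg cells, where lower counts went from 1 to 7 (thinned). The other cases were counts of 5 or fewer. Of 336 results for single named members, 49 no longer passed the limit. Depth limits the members under 50 CPM and the states with few member UMIs, such as Gzmd-Gzmg cells (7473 and 5911) and effector cells under the label WT (6445).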
